A study of Mus musculus with 6 samples.

Results

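The 59 genes described here drive the cell cycle and copy the genome. They were chosen by name, as known genes of S phase, of mitosis and of the control of entry into the cycle, and their symbols were matched to the Ensembl identifiers of the counts. All 59 were found among the 54532 identifiers counted in each library, and all 59 passed the filter on low counts, as did 12894 genes in all. By role, 23 act in S phase, 22 in mitosis, and the other 14 are cyclins and kinases of G1, inhibitors of these kinases, and transcription factors of the cycle.

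A cell that is about to divide loads the MCM helicase onto its origins of replication, and the kinases of S phase then set the helicase going while DNA polymerases, clamps and ligases copy both strands. Entry into the cycle depends on the D-type cyclins with CDK4 and CDK6, which inactivate the retinoblastoma protein and so release E2F factors onto the genes of replication, whereas the genes of mitosis are switched on later, among others by FOXM1. In the DC lineage, progenitors and pre-cDCs divide and mature cDCs hardly do.

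The study asked what c-Jun and JunB, subunits of the dimeric transcription factor AP-1, do in cDC1, the conventional DC subset that cross-presents antigen. Bone marrow was taken from *c-Jun/JunB* fl/fl mice and, for the deleted genotype, from *c-Jun/JunB* Δ/Δ mice with *Itgax*-Cre. It was cultured with 80 ng/mL FLT3L, a cytokine that drives DC development, and cDC1s were sorted on day 8 as CD24+ CD11c+ cells without B220, CD115 or CD172a. Poly(A) RNA of 3 cultures per genotype was sequenced, here called fl/fl 1, 2 and 3 and Δ/Δ 1, 2 and 3. Both genotypes were adult mice of a mixed 129Sv × C57BL/6 background with loxP sites in both genes, and only the Δ/Δ mice also carry Cre, so the labels list the latter by the floxed alleles and the Cre. Cre stands under the CD11c promoter, so deletion starts in pre-cDCs and later cells and not in the earlier progenitors that the cultures begin with. The replicates are numbered samples, which a legend of the paper counts as individual mice, and p-values measure the spread between these samples. In sorted bulk RNA, fewer dividing cells and less of a transcript per cell cannot be told apart.

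Libraries held 21693217 to 26788296 reads on genes, and the 59 genes together took 0.274 to 0.596% of them. The lowest count of any member was 88 reads, for *Gins2* in Δ/Δ 3. Values are CPM, the read counts scaled to TMM library sizes, and p-values come from the quasi-likelihood test of edgeR with Benjamini-Hochberg adjustment over all 12894 genes. Of these, 1.86% passed an adjusted p of 0.05 with a log2 change of 1 or more up or down. The targeted genes were measured at 70.9, 52.4 and 63.1 CPM (*Jun*) and 314, 274 and 413 CPM (*Junb*) in fl/fl 1, 2 and 3, against 48.1, 44.2 and 60.4 CPM and 110.3, 171 and 211 CPM in Δ/Δ 1, 2 and 3. *Junb* did not overlap between genotypes (log2 fold change -1.02, SE 0.25, edgeR adjusted p = 0.0729). This adjusted p was 0.0359 without Δ/Δ 1 and 0.0599 to 0.228 without each other library. *Jun* did overlap (-0.29, edgeR adjusted p = 0.345), so reads on *Jun* do not tell the genotypes apart. Δ/Δ therefore names the libraries by their labels. The paper reports that quantitative RT-PCR showed deletion of both genes in cDC1s sorted from spleen and lymph nodes of *Itgax*-Cre mice. It also measured both transcripts this way in sorted cells of FLT3L cultures. *Itgax*, which encodes CD11c and whose promoter drives Cre, was lower in Δ/Δ (log2 fold change -1.22, SE 0.17, edgeR adjusted p = 0.0147, and 0.0505 to 0.0781 without each fl/fl library). Reads on *Xist* numbered at most 1, so sex did not vary between libraries.

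The genes of DNA replication and of mitosis were at fl/fl levels in 1 Δ/Δ culture and below every fl/fl culture in the other two. Summed over the 23 S-phase genes, the level was 1884, 1705 and 1196 CPM in fl/fl 1, 2 and 3 against 1720.0, 895 and 631 CPM in Δ/Δ 1, 2 and 3. Summed over the 22 mitotic genes, it was 2257, 2104 and 1597 CPM in fl/fl against 1974, 846 and 665 CPM in Δ/Δ. Δ/Δ 1 lay inside the fl/fl range in both sums, at 108% and 99.4% of the fl/fl mean, and Δ/Δ 2 and Δ/Δ 3 lay below every fl/fl library. In Δ/Δ 2 the S-phase sum was 56.1% and the mitotic sum 42.6% of the fl/fl mean, and in Δ/Δ 3 they were 39.6% and 33.5%. The mean of the S-phase sums was 1595 ± 357 CPM in fl/fl against 1082 ± 568 CPM in Δ/Δ (SD, n = 3), and that of the mitotic sums 1986 ± 345 CPM and 1162 ± 709 CPM. The log2 ratio of these means was -0.56 (S phase) and -0.77 (mitosis). The means of the log2 sums differed by -0.66 and -0.92, against an SD between replicates of 0.57 and 0.61 on that scale. Sums over chosen genes were not given a p-value.

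**Figure D1:**
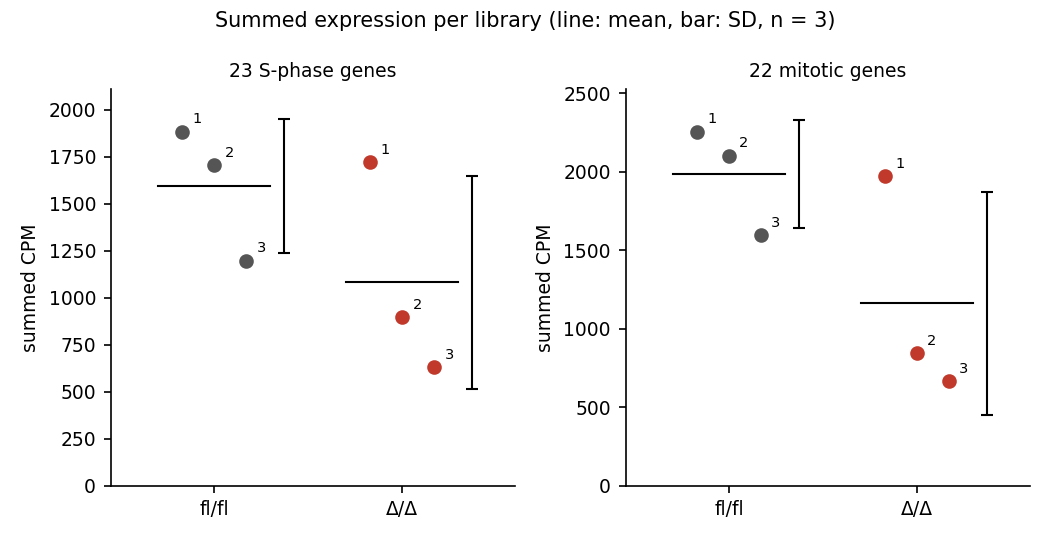
Summed CPM (y axis) of the 23 S-phase genes (left) and the 22 mitotic genes (right) in each numbered library by genotype, with lines at the means and bars for the SD over 3 libraries. Δ/Δ 1 sits among the fl/fl libraries at 1720.0 and 1974 CPM, and Δ/Δ 2 and 3 sit below all of them.

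No S-phase gene and no mitotic gene passed edgeR's test between the genotypes at an adjusted p under 0.05, and 2 of these 45 genes, *Kif23* and *Cenpe*, had an unadjusted p under 0.05. That limit was passed by 19.4% of all genes tested. DESeq2's Wald test and limma-voom called none of the 45 either. The fitted log2 fold change was below 0 for all 45, as for 49.7% of all genes tested. Its median was -0.58 over the S-phase genes and -0.88 over the mitotic genes, beside 0.00 over all genes. Most of these genes rose and fell in the same libraries, so their shared sign is not 45 separate observations. The Δ/Δ cultures differed among themselves more than the fl/fl cultures did. Over the 59 members the median SD of log2(CPM + 0.5) was 0.297 among fl/fl and 0.892 among Δ/Δ libraries, beside 0.107 and 0.162 over all genes. The SD was larger among Δ/Δ for 58 of 59 members, all but *Cdkn1b*, and for 70.6% of all genes tested.

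Most members had their lowest and highest values in the same libraries. Of 59 members, 52 were lowest in Δ/Δ 3, and 39 were highest in fl/fl 1. All 23 S-phase genes and 20 of 22 mitotic genes had Δ/Δ 2 and 3 below every fl/fl library and Δ/Δ 1 not, a pattern noticed in these data and held by 49 of 59 members and by 11.0% of all genes tested. Every Δ/Δ library lay below every fl/fl library for 3 members (*Cdk6*, *Cenpe* and *Kif23*), as for 12.3% of all genes, and above for 2 members (*Ccnd3* and *Cdkn1b*), as for 13.7%. The other 5 members, *Ccnd1*, *Ccnd2*, *Ccne1*, *Cdk2* and *Cdkn1a*, followed none of these patterns.

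**Figure D2:**
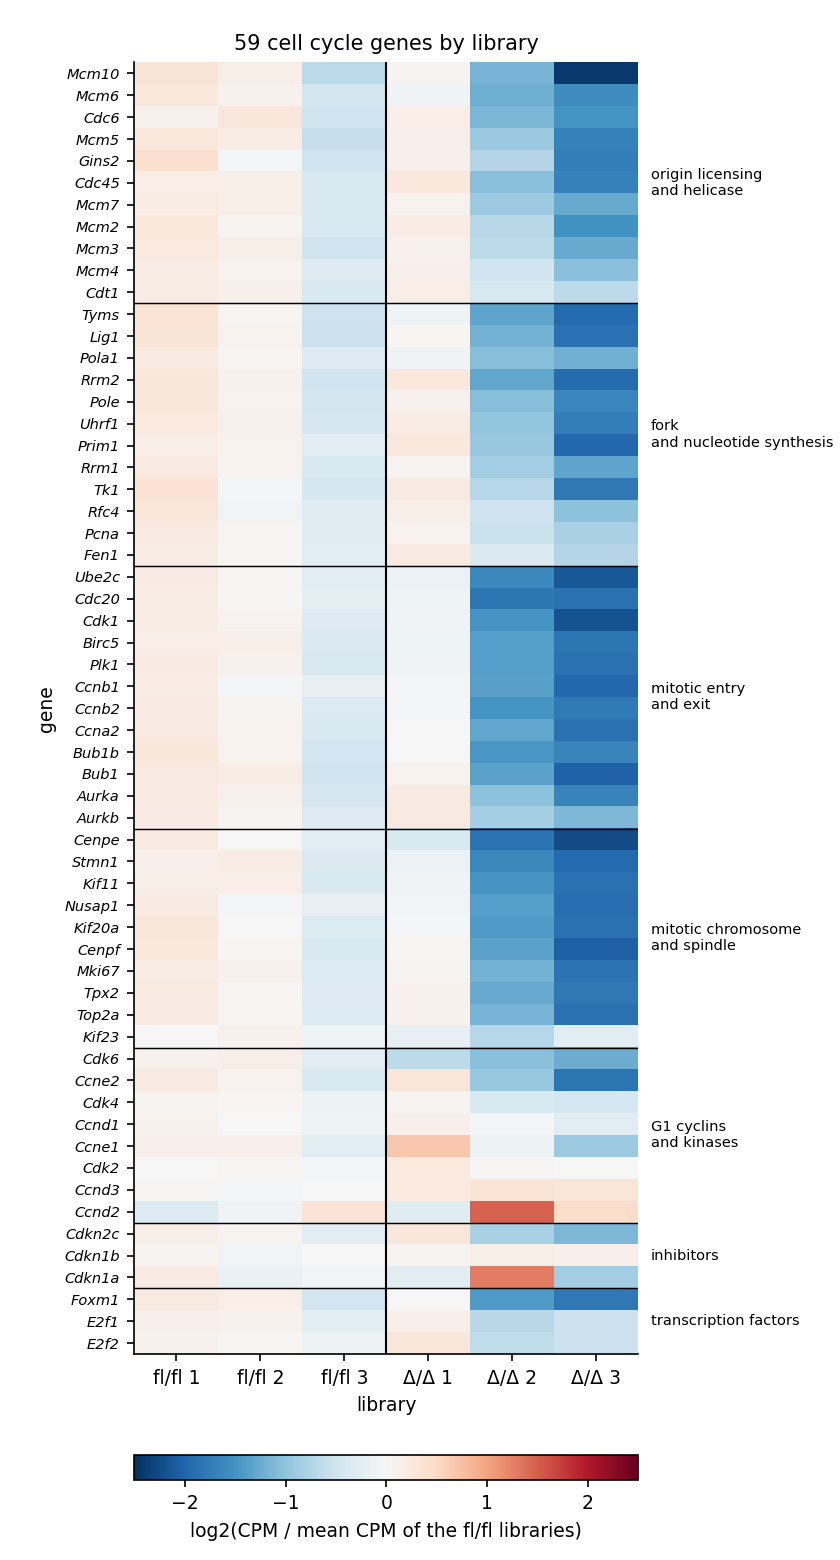
Each of the 59 genes (y axis, grouped by role) in each of the 6 libraries (x axis), coloured by log2 of CPM over the mean CPM of the fl/fl libraries. All 23 S-phase genes and 20 of 22 mitotic genes (not *Cenpe* and *Kif23*) are below every fl/fl library in Δ/Δ 2 and 3 and not in Δ/Δ 1, whereas *Ccnd2* and *Cdkn1a* are highest in Δ/Δ 2.

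Which library is left out decides the count. Each library was left out in turn, and no label sets Δ/Δ 1 apart from the other Δ/Δ libraries. Without Δ/Δ 1, 42 members were lower and 1 higher in Δ/Δ at an adjusted p under 0.05 (edgeR), among 5.43% of 13250 genes that were lower and 4.53% that were higher. The 42 were 14 of 23 S-phase genes, 21 of 22 mitotic genes and 7 of the other 14, and the median log2 fold change became -1.15 over the S-phase genes and -1.61 over the mitotic genes. The means of the log2 sums then differed by -1.06 (S phase) and -1.39 (mitosis), and without Δ/Δ 3 by -0.34 and -0.60. Leaving out any other library gave no S-phase or mitotic gene at this limit. A comparison of 2 Δ/Δ cultures with 3 fl/fl cultures describes these libraries, as Δ/Δ 1 carries the same label.

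**Figure D3:**
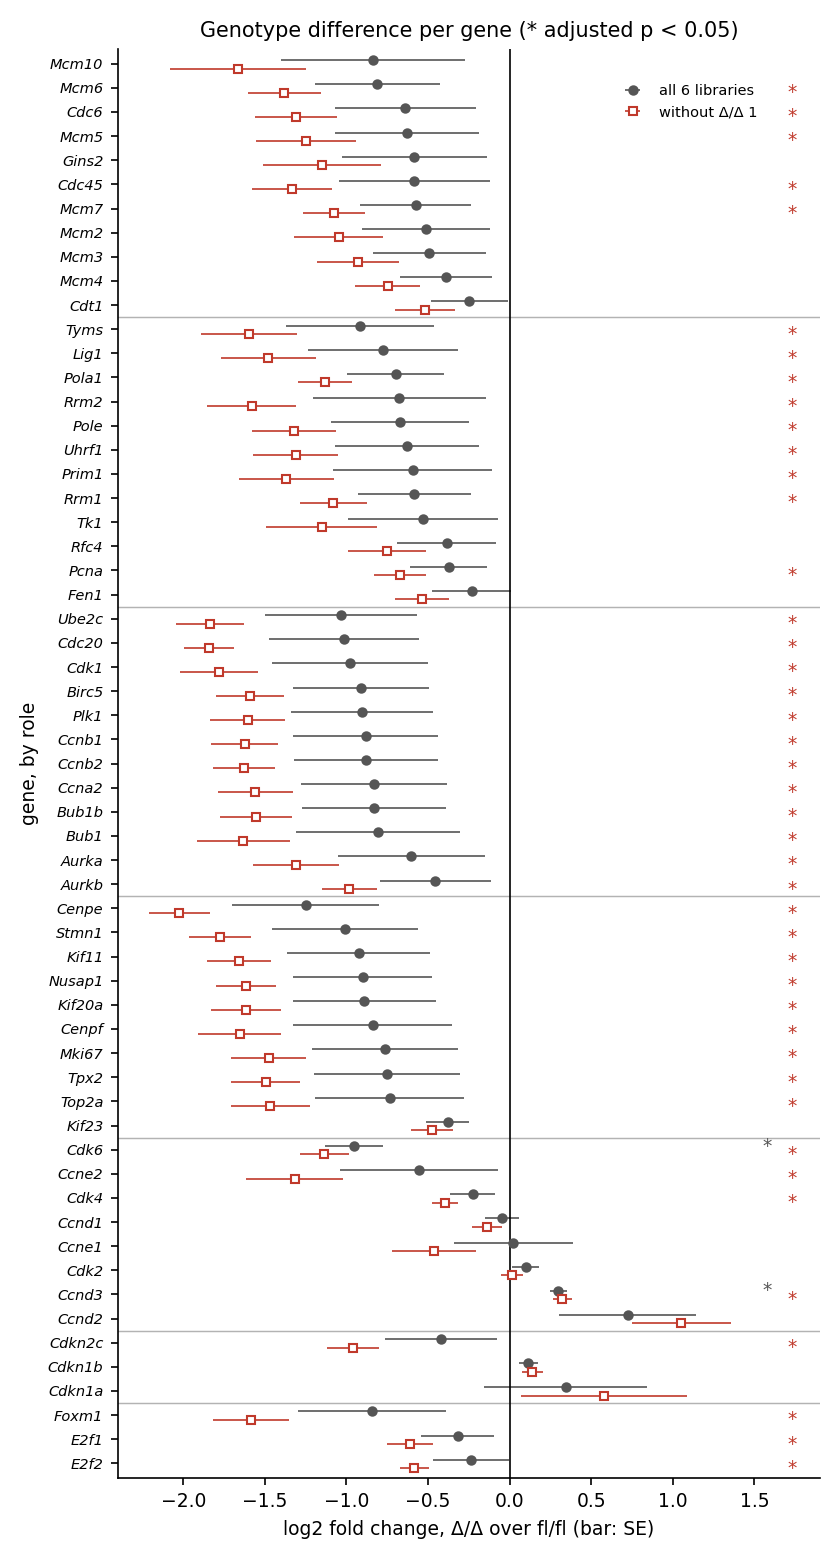
Log2 fold change of Δ/Δ over fl/fl (x axis, bars for the SE) of each gene (y axis, by role from origin licensing to transcription factors), fitted on all 6 libraries (filled circles) and without Δ/Δ 1 (open squares), with a star for an adjusted p under 0.05. With all libraries only *Cdk6* and *Ccnd3* carry a star, and without Δ/Δ 1 the mitotic genes other than *Kif23* all do.

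Among the genes that license origins and form the helicase, *Mcm6*, a subunit of the MCM ring, held the most reads. It was counted at 181, 162 and 109.6 CPM in fl/fl 1, 2 and 3 against 142, 65.2 and 50.7 CPM in Δ/Δ 1, 2 and 3. Only Δ/Δ 2 and 3 stood below the fl/fl libraries, and the log2 fold change of -0.81 (SE 0.38) did not pass the test (edgeR adjusted p = 0.304). *Mcm2*, another subunit, was at 86.5, 75.3 and 54.4 CPM in fl/fl against 81.6, 44.4 and 25.3 CPM in Δ/Δ, and again only Δ/Δ 2 and 3 stood below the fl/fl libraries. *Mcm10*, which helps to activate the loaded helicase, had the widest span of the 11, with 37.9, 33.5 and 18.99 CPM in fl/fl against 31.5, 13.4 and 5.63 CPM in Δ/Δ, 6.72-fold from fl/fl 1 to Δ/Δ 3. Its log2 fold change was -0.83 (SE 0.56, edgeR adjusted p = 0.463). At the other end stood *Cdt1*, the loading factor that is destroyed once S phase begins, with 42.7, 40.6 and 28.7 CPM in fl/fl against 42.2, 28.4 and 23.8 CPM in Δ/Δ, a 1.80-fold span. The 11 genes, which also include the MCM subunits *Mcm3*, *Mcm4*, *Mcm5* and *Mcm7*, the loader *Cdc6* and the helicase cofactors *Cdc45* and *Gins2*, had fold changes of -0.83 to -0.25, and none passed the test.

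Of the 12 genes of the fork and of nucleotide synthesis, *Pcna*, the sliding clamp of the polymerases, held the most reads, at 226, 196 and 155 CPM in fl/fl against 204, 131 and 110.0 CPM in Δ/Δ. Its log2 fold change of -0.37 (SE 0.24, edgeR adjusted p = 0.434) was among the smaller ones, and its span from fl/fl 1 to Δ/Δ 3 was 2.05-fold. *Tyms*, the enzyme that makes thymidylate, had the most negative fold change of the 12. It was at 29.98, 24.8 and 16.7 CPM in fl/fl against 21.97, 9.60 and 6.16 CPM in Δ/Δ (log2 fold change -0.92, SE 0.45, edgeR adjusted p = 0.321). *Lig1*, the ligase that joins Okazaki fragments, was at 78.95, 67.3 and 43.8 CPM in fl/fl against 65.4, 28.1 and 17.4 CPM in Δ/Δ (-0.78, SE 0.46, adjusted p = 0.405). *Rrm2*, the subunit of ribonucleotide reductase that is made in S phase, was at 97.6, 86.8 and 56.6 CPM in fl/fl against 96.9, 32.7 and 21.04 CPM in Δ/Δ. In each of these genes Δ/Δ 1 was within the fl/fl range and Δ/Δ 3 was the lowest. *Rrm1*, the constant subunit of the same enzyme, spanned 2.92-fold from fl/fl 1 to Δ/Δ 3 against 4.64-fold for *Rrm2*. The remaining genes were the polymerase and primase genes *Pola1*, *Pole* and *Prim1*, the flap nuclease *Fen1*, the clamp loader *Rfc4*, the thymidine kinase *Tk1* and *Uhrf1*, which carries DNA methylation through replication. Fold changes of the 12 genes ran from -0.92 to -0.23, and none passed.

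The mitotic sum spanned 3.39-fold from its highest to its lowest library and the S-phase sum 2.99-fold, and in both fl/fl 1 was the highest and Δ/Δ 3 the lowest. The mitotic sum divided by the S-phase sum was 1.20, 1.23 and 1.33 in fl/fl 1, 2 and 3 and 1.15, 0.945 and 1.05 in Δ/Δ 1, 2 and 3. This ratio did not overlap between the genotypes, and Δ/Δ 1, which was within the fl/fl range in both sums, was the Δ/Δ library closest to the fl/fl ratios. The ratio was looked at after the sums were known and has no test.

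Of the 12 genes of mitotic entry and exit, *Ccna2*, the cyclin of S phase and G2, held the most reads, at 104, 94.1 and 68.1 CPM in fl/fl against 89.3, 35.98 and 24.3 CPM in Δ/Δ (log2 fold change -0.83, SE 0.45, edgeR adjusted p = 0.358). *Cdk1*, the kinase that starts mitosis, was at 49.8, 46.3 and 34.8 CPM in fl/fl against 41.03, 15.7 and 9.68 CPM in Δ/Δ, and *Ccnb1*, its cyclin, at 36.6, 31.6 and 28.3 and 31.4, 12.6 and 8.23 CPM. Δ/Δ 1 was within the fl/fl range for all 3 genes, and fl/fl 1 was 4.29, 5.15 and 4.45-fold above Δ/Δ 3 for *Ccna2*, *Cdk1* and *Ccnb1*. The most negative fold changes of the 12 were those of *Ube2c* and *Cdc20*, with *Cdk1* next and close to them (-0.98, SE 0.48, edgeR adjusted p = 0.320). *Ube2c*, the ubiquitin-conjugating enzyme of the anaphase-promoting complex, was at 40.4, 35.5 and 28.6 CPM in fl/fl against 31.4, 11.5 and 8.01 CPM in Δ/Δ (-1.03, SE 0.47, edgeR adjusted p = 0.283). *Cdc20*, the activator of this complex, was at 43.9, 39.3 and 32.4 CPM and 35.6, 10.95 and 10.5 CPM (-1.01, SE 0.46, edgeR adjusted p = 0.286). Without Δ/Δ 1, *Cdc20* had the smallest adjusted p of all members (log2 fold change -1.84, edgeR adjusted p = 0.00184). The fold changes of the 12 genes ran from -1.03 to -0.45, the last for *Aurkb*, and the list also holds *Ccnb2*, the kinases *Plk1* and *Aurka*, the spindle checkpoint kinases *Bub1* and *Bub1b*, and *Birc5*, the survivin of the chromosomal passenger complex.

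The 10 genes of mitotic chromosomes and the spindle include the antigen that serves as the common stain for cycling cells. *Mki67*, which encodes Ki-67, held the most reads of all mitotic genes, at 469.9, 446 and 326 CPM in fl/fl 1, 2 and 3 against 435, 182 and 115 CPM in Δ/Δ 1, 2 and 3. *Top2a*, the topoisomerase that untangles sister chromatids, was at 385, 342 and 261 CPM in fl/fl against 355, 148 and 90.1 CPM in Δ/Δ. For both, Δ/Δ 1 lay within the fl/fl range while fl/fl 1 was 4.10-fold (*Mki67*) and 4.28-fold (*Top2a*) above Δ/Δ 3, and neither passed the test (*Mki67* -0.76, SE 0.45, edgeR adjusted p = 0.398, and *Top2a* -0.74, SE 0.46, edgeR adjusted p = 0.425). *Cenpe*, a kinesin of the kinetochore, had the most negative fold change of all 59 members and no overlap between the genotypes. It was at 78.6, 66.4 and 55.4 CPM in fl/fl against 51.3, 18.7 and 14.1 CPM in Δ/Δ (log2 fold change -1.25, SE 0.45, edgeR adjusted p = 0.191). *Stmn1*, which destabilises microtubules, was at 110.0, 114 and 78.3 CPM in fl/fl against 90.9, 32.8 and 26.1 CPM in Δ/Δ (-1.01, SE 0.45, edgeR adjusted p = 0.275). *Kif23*, a kinesin of the central spindle, departed from the other 9 genes. Its counts were 215, 230.3 and 199 CPM in fl/fl against 186, 131 and 177 CPM in Δ/Δ, so that Δ/Δ 2 and not Δ/Δ 3 was the lowest and fl/fl 1 was only 1.21-fold above Δ/Δ 3 (log2 fold change -0.38, SE 0.13, edgeR adjusted p = 0.180). The other members were the motor genes *Kif11* and *Kif20a*, the kinetochore gene *Cenpf* and the spindle genes *Tpx2* and *Nusap1*.

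The promoters of both sets of genes hold letters that the choice by name did not use. RefSeq windows on GRCm38.p6, from 250 bases before to 50 bases after the start of transcription, were found for 47 of 59 members (56 windows), and each was searched on both strands. An E2F element was taken as TTTGGCGC, TTTCGCGC, TTTCCCGC or TTTGCCGC, the cell cycle homology region (CHR) as TTTGAA, and an AP-1 element as TGACTCA (read either way) or TGACGTCA. The CCAAT box was taken as its name spells it, and the other form of the CHR, in which a C stands for a T, was searched as TTCGAA. E2F letters stood in 9 of 25 windows of S-phase genes (36.0%, exact 95% interval 17.97 to 57.5%), in 5.88% of the 17 mitotic windows and in 2.26% of all 32851 windows. The 25 windows belong to 20 genes, and the interval treats windows of the same gene as independent. CHR letters stood in 13 of 17 mitotic windows (76.5%, 50.1 to 93.2%), in 16.0% of S-phase windows and in 19.2% of all windows. CCAAT was found in 88.2% of mitotic, 60.0% of S-phase and 37.4% of all windows. AP-1 letters were found in 2 members' windows, those of *Mcm5* and *Cenpe*, and in 6.96% of all windows. In the 150 bases before the start alone, E2F letters stood in 16.0% of S-phase and 1.24% of all windows, and CHR letters in 35.3% of mitotic and 9.70% of all windows. These are matches of letters, not sites that were measured.

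The windows printed are those of the S-phase and the mitotic gene with the most kinds of these elements, ties broken by the order of symbols. By this choice, in which a window of *Mcm7* tied with that of *Mcm5* at 3 kinds and holds CHR in place of AP-1 letters, the windows of *Mcm5* (GRCm38.p6 chr8:75109259-75109558, plus strand) and *Cdk1* (chr10:69352863-69353162, minus strand) show the letters of each set. Capitals mark E2F, CCAAT and AP-1 letters in *Mcm5* and E2F, CCAAT and CHR letters in *Cdk1*, in which ATTGG is CCAAT read on the other strand.
Mcm5: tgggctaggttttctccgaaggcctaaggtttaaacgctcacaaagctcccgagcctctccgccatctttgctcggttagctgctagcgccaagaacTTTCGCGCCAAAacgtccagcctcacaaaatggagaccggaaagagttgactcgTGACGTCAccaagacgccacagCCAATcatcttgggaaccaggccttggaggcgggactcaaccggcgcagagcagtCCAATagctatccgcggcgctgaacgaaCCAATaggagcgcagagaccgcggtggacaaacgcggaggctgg
Cdk1: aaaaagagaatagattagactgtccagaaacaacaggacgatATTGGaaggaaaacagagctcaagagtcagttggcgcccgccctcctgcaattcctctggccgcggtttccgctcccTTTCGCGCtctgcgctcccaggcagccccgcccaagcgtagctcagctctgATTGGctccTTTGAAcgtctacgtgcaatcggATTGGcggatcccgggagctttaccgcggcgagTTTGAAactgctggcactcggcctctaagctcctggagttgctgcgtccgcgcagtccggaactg
*Mcm5* has overlapping E2F letters, 3 CCAAT boxes and TGACGTCA, the form of the AP-1 element that ATF and CREB proteins also bind. *Cdk1* has 1 E2F element, 3 CCAAT boxes and 2 CHR elements. In the counts, *Mcm5* was at 144, 136 and 80.2 CPM in fl/fl against 132, 63.6 and 37.5 CPM in Δ/Δ, with Δ/Δ 1 within the fl/fl range like *Cdk1*.

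Only the G1 genes held members that passed the test, 1 in each direction. Genes with an adjusted p under 0.05 made up 1.85% (lower) and 2.03% (higher) of all genes tested, so 1 each of 59 is close to that share. *Cdk6* (ENSMUSG00000040274.11, GRCm38 chromosome 5, bases 3341485 to 3531008, plus strand), a kinase that pairs with D cyclins in blood progenitors, was at 44.04, 45.1 and 33.7 CPM in fl/fl against 26.1, 19.9 and 17.4 CPM in Δ/Δ. All Δ/Δ libraries lay below all fl/fl libraries, and *Cdk6* was lower by a log2 fold change of -0.95 (SE 0.18, edgeR adjusted p = 0.0342). Δ/Δ 1, which resembled fl/fl in the replication and mitotic genes, was at 63.9% of the fl/fl mean of *Cdk6*. *Ccnd3* (ENSMUSG00000034165.16, GRCm38 chromosome 17, bases 47505051 to 47599691, plus strand), the D cyclin of many mature blood cells, was at 232, 221 and 225 CPM in fl/fl against 269, 286 and 279 CPM in Δ/Δ. It was higher in every Δ/Δ library by a small and even amount (log2 fold change 0.30, SE 0.05, edgeR adjusted p = 0.0277). Neither reached a log2 fold change of 1, and both lost the call when any fl/fl library or Δ/Δ 3 was left out, *Cdk6* also without Δ/Δ 2 (edgeR adjusted p = 0.0533 to 0.159 for *Cdk6* and 0.0607 to 0.176 for *Ccnd3*).

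*Ccnd1*, another D cyclin, held the most reads of all members, at 789.5, 733 and 683 CPM in fl/fl against 804, 718 and 615 CPM in Δ/Δ, with overlapping genotypes (log2 fold change -0.05, SE 0.11, edgeR adjusted p = 0.849). Per kilobase of exon, its mean in fl/fl was 156 CPM, against 25.8 CPM for *Ccnd3* and 2.79 CPM for *Ccnd2*. On the same scale *Cdk4* was at 44.2 CPM and *Cdk6* at 2.93 CPM. *Cdk4*, the other kinase of the D cyclins, was at 151, 149 and 132 CPM in fl/fl against 150.4, 111 and 107 CPM in Δ/Δ, and only Δ/Δ 2 and 3 stood below fl/fl (-0.23, SE 0.14, edgeR adjusted p = 0.411). *Ccnd2*, the third D cyclin, stood out in Δ/Δ 2, with 20.6, 24.9 and 33.3 CPM in fl/fl against 21.3, 72.8 and 35.95 CPM in Δ/Δ (0.72, SE 0.42, edgeR adjusted p = 0.395). The E cyclins, partners of CDK2 at the entry into S phase, were at 12.6, 12.8 and 9.54 CPM (*Ccne1*) and 18.4, 16.7 and 12.1 CPM (*Ccne2*) in fl/fl and at 18.6, 10.7 and 6.21 CPM and 19.4, 8.20 and 4.44 CPM in Δ/Δ. For both, Δ/Δ 1 was the highest and Δ/Δ 3 the lowest of all 6 libraries, and the counts of *Ccne2* are uncertain, as it overlaps *Ints8* on the opposite strand. *Cdk2* itself varied little, from 71.8 CPM in fl/fl 3 to 87.9 CPM in Δ/Δ 1.

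The inhibitors did not share a pattern. *Cdkn1a*, the p21 that p53 induces, was at 42.5, 32.9 and 35.1 CPM in fl/fl against 30.2, 89.9 and 20.2 CPM in Δ/Δ, so that Δ/Δ 2 was the highest and Δ/Δ 3 the lowest of all libraries (log2 fold change 0.34, SE 0.50, edgeR adjusted p = 0.756). *Cdkn1b*, the p27 of resting cells, was at 178, 162 and 172 CPM in fl/fl against 178, 188 and 187 CPM in Δ/Δ. Its genotypes did not overlap, by less than 1 CPM, and it did not pass the test (0.11, SE 0.06, edgeR adjusted p = 0.343). *Cdkn2c*, the p18 that binds CDK4 and CDK6, was at 44.7, 42.5 and 33.8 CPM in fl/fl against 48.8, 23.02 and 18.4 CPM in Δ/Δ, highest in Δ/Δ 1 and below fl/fl in Δ/Δ 2 and 3. Of the transcription factors, *Foxm1* had the library order of the mitotic sum, with 57.7, 55.2 and 35.3 CPM in fl/fl against 49.7, 18.5 and 14.4 CPM in Δ/Δ (-0.84, SE 0.45, edgeR adjusted p = 0.360). *E2f1* was at 39.1, 38.5 and 29.8 CPM and 39.2, 22.1 and 24.7 CPM, and *E2f2* at 93.8, 88.6 and 79.6 CPM and 106, 56.1 and 60.3 CPM. Both E2F genes had a narrower span than *Foxm1*, and in both Δ/Δ 2 was lower than Δ/Δ 3.

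**Figure D4:**
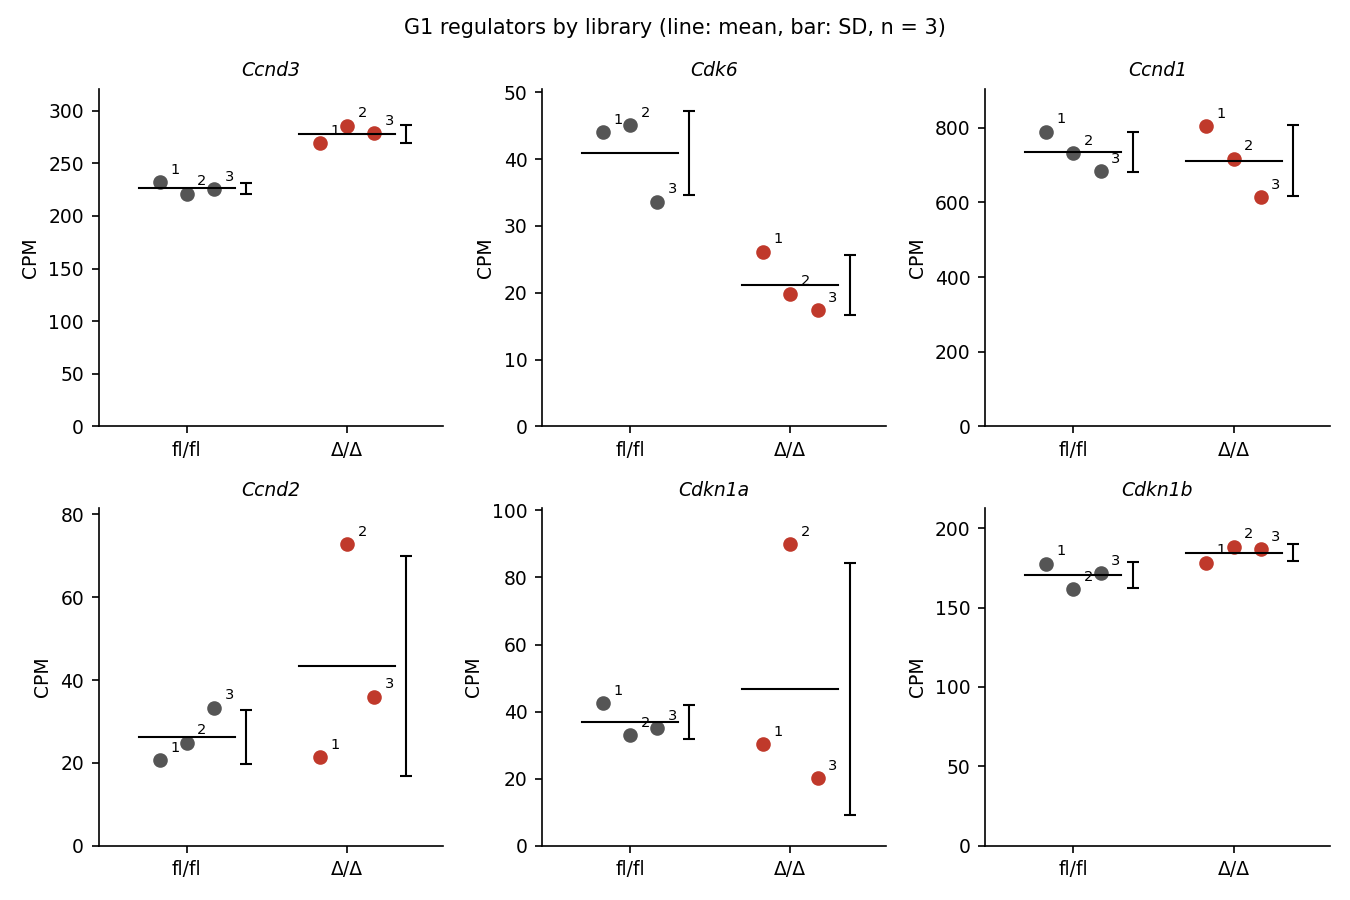
CPM (y axis) of 6 regulators of G1 in each numbered library by genotype, with lines at the means and bars for the SD over 3 libraries. *Ccnd3* is higher and *Cdk6* lower in every Δ/Δ library, *Ccnd1* overlaps, *Ccnd2* and *Cdkn1a* are highest in Δ/Δ 2, and the closest *Cdkn1b* values of the genotypes are 178 CPM each.

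Genes of the same pathways outside the 59 were counted in the same way. Of 58 other replication genes, 1 was lower in Δ/Δ at an adjusted p under 0.05 and none higher, against 1.85% lower and 2.03% higher over all genes, with a median log2 fold change of -0.39. It was *Rfc2*, a subunit of the clamp loader, at 66.9, 67.1 and 58.6 CPM in fl/fl against 49.3, 40.9 and 44.5 CPM in Δ/Δ (-0.52, SE 0.09, edgeR adjusted p = 0.0306, and 0.0569 to 0.149 without each fl/fl library or Δ/Δ 3). Of 72 other mitotic genes none passed edgeR's test and 7 had an unadjusted p under 0.05, against 19.4% over all genes (median -0.71). DESeq2's Wald test, which called 3.86% of all genes lower and 4.7% higher, called 1 of the 72, *Ube2t*, at 11.6, 13.3 and 10.5 CPM in fl/fl against 8.47, 4.57 and 3.65 CPM in Δ/Δ. Of the 58 and the 72, 45 and 70 had Δ/Δ 2 and 3 below every fl/fl library and Δ/Δ 1 not, against 11.0% of all genes. Without Δ/Δ 1, 26 of the 58 and 62 of the 72 were lower at an adjusted p under 0.05 and none higher, against 5.43% and 4.53% over all genes. As for the members, this fit leaves out the Δ/Δ library that stood near fl/fl in these genes. These counts therefore describe the libraries and are no separate test of genotype. Of 37 further genes of cell cycle control, 36 were tested, none passed edgeR's or DESeq2's test, 1 had an unadjusted p under 0.05 and the median was -0.08. Of the 36 tested, 15 had Δ/Δ 2 and 3 below every fl/fl library and Δ/Δ 1 not. Of 17 targets of p53, 15 were tested (median 0.20), and 1 was higher in Δ/Δ, *Trp53inp1*, at 57.5, 62.2 and 61.6 CPM in fl/fl against 81.9, 79.6 and 93.4 CPM in Δ/Δ (0.49, SE 0.08, edgeR adjusted p = 0.0208, and 0.0804 to 0.123 without each fl/fl library). DESeq2's Wald test called *Zmat3* higher as well.

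The 12 immediate early genes, which rise within minutes of stimulation or handling, summed to 864, 788 and 1181 CPM in fl/fl 1, 2 and 3 against 1077, 2116 and 2530 CPM in Δ/Δ 1, 2 and 3. They were thus highest in Δ/Δ 3 and Δ/Δ 2, where the cell cycle sums were lowest, and within fl/fl they were highest in fl/fl 3, which had the lowest cell cycle sums of that genotype. The order was not opposite throughout, as fl/fl 1 was above fl/fl 2 in the immediate early sum and in both cell cycle sums. None of the 12 passed edgeR's test with all libraries, though 8 had an unadjusted p under 0.05 (19.4% of all genes), and 10 were higher without Δ/Δ 1 (4.53% of all genes). The latter fit leaves out the Δ/Δ library whose immediate early sum lay within the fl/fl range. DESeq2's Wald test called 4 of the 12 higher with all libraries, *Fosb*, *Egr3*, *Ier2* and *Btg2*. Their part in the result was not tested. The 10 genes of mature DCs, such as *Ccr7* and *Fscn1*, summed to 1567, 1256 and 1478 CPM in fl/fl against 705, 2546 and 962 CPM in Δ/Δ, and so were high in Δ/Δ 2 and low in Δ/Δ 1 and 3. *Ccnd2* and *Cdkn1a* were also highest in Δ/Δ 2, and the part of mature DCs in their values was not tested. None of the 10 passed edgeR's test and 1 had an unadjusted p under 0.05, *Cd80*, which DESeq2's Wald test called higher.

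**Figure D5:**
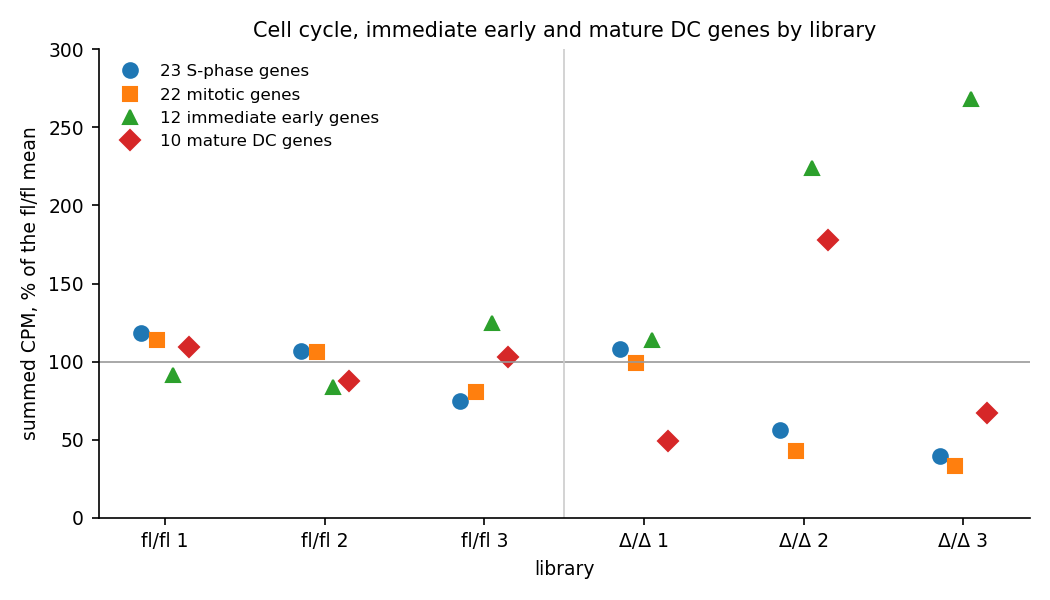
Summed CPM as a percentage of the fl/fl mean (y axis) of the 23 S-phase, 22 mitotic, 12 immediate early and 10 mature DC genes in each library (x axis). In Δ/Δ 2 and 3 the immediate early sums stand at 224% and 268% and the mitotic sums at 42.6% and 33.5%.

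Markers of other cells were checked for the same reason. Of 12 progenitor genes, 6 were tested and none passed edgeR's test. Of these 6, 2 had an unadjusted p under 0.05, against 19.4% of all genes, and DESeq2's Wald test called *Cd34* lower. The sum of the 12 was 596 to 661 CPM in fl/fl against 666 to 764 CPM in Δ/Δ. Most of it was *Kit*, the stem cell factor receptor, at 288, 313 and 366 CPM in fl/fl against 349, 401 and 462 CPM in Δ/Δ, and *Spn*, while the granulocyte genes *Mpo*, *Elane*, *Prtn3*, *Ctsg* and *Ms4a3* stayed under 1 CPM in each library. Erythroid and T and NK cell genes summed to at most 1.01 CPM. B cell genes summed to 18.97 to 31.02 CPM in fl/fl against 13.05 to 49.96 CPM in Δ/Δ, basophil and mast cell genes to 0.462 to 1.26 CPM and 1.09 to 16.8 CPM, and neutrophil genes to 4.59 to 20.98 CPM and 0.851 to 7.92 CPM. The highest B cell and basophil sums were those of Δ/Δ 2. The 13 cDC1 markers summed to 11594 to 11839 CPM in fl/fl against 9411 to 11444 CPM in Δ/Δ. Their fitted log2 fold change was below 0 for 7 and above 0 for 6 (median -0.13). *Xcr1*, *Tlr3* and *Itgax* were lower in Δ/Δ at an adjusted p under 0.05 (edgeR) and none was higher. Over all genes 1.85% were lower and 2.03% higher at this limit. DESeq2's Wald test also called *Wdfy4* and *Cd24a* lower and *Cadm1* higher. The 10 cDC2 markers summed to 224 to 371 CPM in fl/fl against 520 to 753 CPM in Δ/Δ (3 higher), the 6 monocyte and macrophage genes to 2441 to 2860 CPM and 3454 to 4295 CPM (2 higher), and the 8 pDC genes to 1168 to 1237 CPM and 1349 to 1553 CPM (1 higher). In these 3 lists Δ/Δ 1 stood above every fl/fl library, unlike in the cell cycle sums. Of the pDC genes, DESeq2's Wald test called *Siglech*, *Ccr9* and *Ptprc* higher and *Bst2* lower. The part of any of these cells in the cell cycle values was not tested.

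Several members share bases with a neighbour. *Gins2* with 1593 reads over the 6 libraries lies across *Gse1* with 10353 reads, *Rfc4* with 1636 reads across *Eif4a2* with 55150 reads, and *Cdc20* with 4317 reads across *Elovl1* with 12858 reads. *Ccne2* with 1970 reads lies across *Ints8* with 5910 reads, *Cdc45* with 3017 reads across *Ufd1* with 7262 reads, and *Kif20a* with 5476 reads across *Cdc23* with 6172 reads. *Cdk4* with 19529 reads lies across *Tspan31* with 10145 reads, and *Ccna2* with 10376 reads across *Exosc9* with 4778 reads. *Mcm7* with 15158 reads lies across *Cops6* with 9105 and *Ap4m1* with 6924 reads, and *Fen1* with 9007 reads across *Tmem258* with 8202 reads, and in each case the neighbour is on the opposite strand. The libraries were strand-specific, but which strand setting the counts used was not stated, so the counts of these members are uncertain. *Cdk6* overlaps antisense models that held 1 read, and *Ccnd3* overlaps *Bysl*, with 3412 reads against 36411 for *Ccnd3*.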

How the data were processed

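Poly(A) RNA of sorted FLT3L-derived cDC1s from 6 cultures was sequenced as strand-specific paired-end libraries. The authors aligned reads to mm10 with STAR in 2-pass mode and GENCODE M19 and deposited STAR's counts per gene, 1 column per library, without normalization. The strand column that was kept is not named in the labels or methods. The submitters' processing notes list STAR 2.6.1a, bcl2fastq 2.19.1.403, DESeq2 1.20.0 and RSEM. STAR's tallies of reads outside genes, 20.3 to 20.9% of all, were left out of library sizes and tests. Uniquely mapped reads alone were counted, which lowers genes with near-identical copies.

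Of 54532 identifiers, 54495 were named from GENCODE M21. The deposited counts entered edgeR 4.0.16 under R 4.3.3 (filterByExpr with a minimum count of 10, TMM, glmQLFit, glmQLFTest on genotype, Benjamini-Hochberg over 12894 genes). TMM factors were 0.989 to 1.01. Depth limits precision through counting error, which intervals of shares of windows do not include. Steps were tested on simulated counts. Libraries within a genotype differed by a chi-square per degree of freedom of 6.76 to 42.0, so none were counted as copies.

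Members and lists were chosen with earlier results of these data known. Named were members past adjusted p 0.05, in each role the 2 with the largest fold change and that with the most reads, 21 genes of known function, and members of other lists past the test. *Cdt1*, *Mcm5*, *Rrm1*, *Kif23*, *Kit*, *Spn*, *Ccr7*, *Fscn1* and some genes called by DESeq2's Wald test alone were added after their values were seen. Other genes of the lists that this test alone called are not named. Other settings were size factors from DESeq2 1.42.0, its Wald test, voom from limma 3.58.1, no filter, a stricter filter (a mean of 1 CPM and 10 reads in 3 libraries), leaving out each library, and a replicate block. Python 3.11.15, pandas 2.3.3, scipy 1.17.1 and matplotlib 3.10.9 were used for sums, motif counts with exact Clopper-Pearson intervals, and figures.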

Additional observations from a re-analysis of the deposited data

How the results depend on the processing

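With all 6 libraries, the absence of S-phase and mitotic calls held under DESeq2's size factors, DESeq2's Wald test, limma-voom, both filters and the replicate block. Leaving out libraries in turn gave 0 to 35 of these calls, 0 to 43 calls over all members, 0 to 8 over the 14 G1 genes, inhibitors and factors, 0 to 98 over the other pathway genes, 0 to 2 of the 3 targeted and driver genes, and 74 to 579 called genes among all tested, beside 0, 2, 2, 2, 1 and 240. In each case the highest count came without Δ/Δ 1 alone. DESeq2's Wald test called 385 genes in all, 4 other pathway genes and 2 of the targeted and driver genes, and without a filter these were 2. The replicate block left 1 member, *Cdk6* (*Ccnd3* lost the call), and 2 targeted and driver genes. Deviations of libraries with the same number correlated at 0.0910, -0.148 and 0.20 over all genes tested, and no label pairs the cultures. Correlations this weak do not settle whether the numbers pair them. Both cell cycle sums fell in the order of the numbers within each genotype. With the replicate block, the edgeR adjusted p fell for *Mki67* (0.398 to 0.134) and *Mcm6* (0.304 to 0.0714). It rose for *Ccnd3* (0.0277 to 0.0646). Over the libraries left out, the log2 fold change of *Ccnd1* was lowest without Δ/Δ 1 (-0.14), highest without Δ/Δ 3 (0.049, a change of sign) and changed sign also without fl/fl 1 (0.01), and that of *Cdkn1a* ran from -0.55 without Δ/Δ 2, a change of sign, to 0.70 without Δ/Δ 3. The means of the log2 S-phase sums differed by -1.06 to -0.34 and those of the mitotic sums by -1.39 to -0.60 over the libraries left out, always lower in Δ/Δ, and other scalings moved neither by as much as the SD between replicates. In the shorter window of 150 bases, E2F letters stood in 16.0% of S-phase and CHR letters in 35.3% of mitotic windows, against 36.0% and 76.5%. The 3 cultures per genotype limit all tests, and the immediate early signal, which moves with the same libraries, was not separated from them.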
